A study of Homo sapiens with 12 samples.

Results

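Accessible chromatin was examined at 8 genes of chromosome looping: CTCF, the 3 subunits of the cohesin ring (SMC1A, SMC3 and RAD21), the alternative ring partners STAG1 and STAG2, the loader NIPBL and the release factor WAPL. They were chosen by name, and all 8 were found among the 20037 protein-coding genes of the RefSeq table for GRCh38.p14. A deposited summit, the point of strongest signal within a called peak, belonged to a gene when it lay inside the gene or within 10 kb of it. The rule assigned 34 of the 188019 deposited summits, in 27 intervals, to the 8 genes.

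The study asked how moving through confining collagen bears on chromatin accessibility. HT1080 cells, an established human fibrosarcoma line, spent 48 h in type I collagen gels from rat tail, at 0.3, 1 or 1.7 mg/mL, with 4 libraries per concentration and 12 in all. Every library, at each of the 3 concentrations, came from cells given 20 µM GM6001, which broadly inhibits matrix metalloproteinases, so no group lacked the inhibitor and none was grown outside collagen. Accessibility was measured by ATAC-seq, in which a transposase cuts and tags open DNA. The deposited list pooled the libraries and named none of them, so the values below describe the pooled HT1080 libraries, have no replicate spread, and compare no collagen concentrations. The depth of the single libraries is unknown here.

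CTCF is a zinc finger protein that binds DNA and stops cohesin as it extrudes chromatin loops, which sets the borders of many topological domains. Cohesin is a ring of SMC1A, SMC3 and RAD21 that carries either STAG1 or STAG2. NIPBL loads the ring and drives extrusion, and WAPL opens it and releases it from DNA. The same ring also holds sister chromatids together until anaphase.

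Each of the 8 genes had a summit within 1000 bp of a start, against 65.9% of all protein-coding genes and 67.6% of those with a listed start. Gene starts came from the RefSeq promoter table, which had an entry for 7 of the 8. RAD21 had none, and either of its gene ends was accepted in place of a start. The share of coding genes with any summit inside or within 10 kb was 89.8%, so the 8 of 8 genes with a summit somewhere in that window are close to the background. Where a gene had several summits near a start, the one with the highest enrichment was used and is called the start summit below. The pileup, recovered from the deposited enrichment and p-value, is the number of overlapping fragments at a summit. The peak caller's settings are not given in the sources used here, so what is called a fragment may be a sequenced fragment or a read extended to a fixed length.

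**Figure D1:**
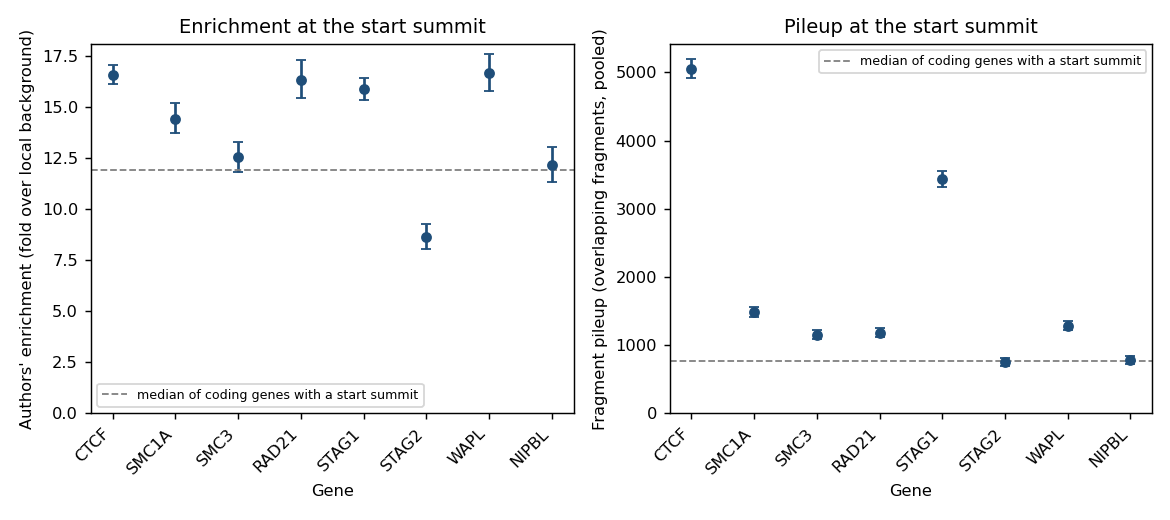
Authors' enrichment (left, fold over the local background) and recovered fragment pileup (right, overlapping fragments in the pooled list) at the start summit of each of the 8 genes, with exact Poisson 95% intervals for counting error only; the dashed line is the median of the 13207 coding genes with a start summit. CTCF and STAG1 stood well above the other genes in pileup, with 5052 and 3437 fragments, but not in enrichment, where CTCF, WAPL, RAD21 and STAG1 lay between 15.9 and 16.7.

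The DNA before the starts is shown for 2 pairs of genes whose values are set side by side below: CTCF and WAPL, which had like enrichments and unlike pileups, and STAG1 and STAG2, the alternative subunits. Each run is the 250 bases upstream of the start (RefSeq, GRCh38.p14), read 5′ to 3′ on the gene's strand. The start summits lay inside these runs, 244 bp upstream of the start in CTCF, 77 bp in WAPL, 204 bp in STAG1 and 169 bp in STAG2. The runs lie at chr16:67562276-67562525 on the plus strand (CTCF), chr10:86521793-86522042 on the minus strand (WAPL), chr3:136752379-136752628 on the minus strand (STAG1) and chrX:123960310-123960559 on the plus strand (STAG2). Capitals mark matches, on either strand, to the SP/KLF box GGGCGG, the CCAAT box and the ETS core CCGGAA.
CTCF: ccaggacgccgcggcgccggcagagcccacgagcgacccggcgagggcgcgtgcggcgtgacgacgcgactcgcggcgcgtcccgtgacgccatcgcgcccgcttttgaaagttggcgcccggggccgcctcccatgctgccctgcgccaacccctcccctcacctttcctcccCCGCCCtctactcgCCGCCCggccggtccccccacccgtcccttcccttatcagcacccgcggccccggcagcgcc
WAPL: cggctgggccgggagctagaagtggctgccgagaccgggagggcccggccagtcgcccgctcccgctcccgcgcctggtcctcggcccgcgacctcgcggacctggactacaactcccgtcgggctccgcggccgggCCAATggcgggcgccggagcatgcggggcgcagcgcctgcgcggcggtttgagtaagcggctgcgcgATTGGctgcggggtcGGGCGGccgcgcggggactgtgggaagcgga
STAG1: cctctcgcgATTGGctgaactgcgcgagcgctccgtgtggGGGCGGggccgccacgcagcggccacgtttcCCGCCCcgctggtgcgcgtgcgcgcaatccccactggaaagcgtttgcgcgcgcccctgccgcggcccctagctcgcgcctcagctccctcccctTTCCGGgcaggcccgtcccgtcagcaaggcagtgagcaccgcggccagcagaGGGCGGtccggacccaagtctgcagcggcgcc
STAG2: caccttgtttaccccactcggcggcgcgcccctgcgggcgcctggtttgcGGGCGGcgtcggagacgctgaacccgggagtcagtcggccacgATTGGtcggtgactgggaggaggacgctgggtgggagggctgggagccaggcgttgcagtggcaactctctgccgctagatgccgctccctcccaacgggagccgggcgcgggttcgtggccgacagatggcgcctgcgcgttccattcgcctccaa

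The CTCF gene (gene ID 10664, chromosome 16, 67562526 to 67639177, 76652 bp) carried the deepest start summit of the 8. It lay at 67562282 in an interval of 1040 bp, from 67561880 to 67562919. The authors' enrichment was 16.6 and their −log10 q 4102. The pileup there was 5052 (95% interval 4914 to 5193), over a local background of 304.2 fragments. In pileup CTCF exceeded 99.7% of the 13207 coding genes with a start summit and ranked at position 37. In enrichment it exceeded 89.4% of them. The enrichment divides the pileup by the local background, and the CTCF background was 15.0 times the genome-wide value of 20.3 fragments, higher than at 98.7% of the coding start summits.

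Of the ring genes, SMC1A and SMC3 encode the paired coiled-coil ATPases and RAD21 the kleisin that closes the ring and is cut by separase at anaphase. SMC1A (chromosome X, 53374149 to 53422728) had its summit at 53422735, 7 bp upstream of the start, and it had an enrichment of 14.4 and 1483 overlapping fragments (1408 to 1560). SMC3 (chromosome 10, 110567695 to 110606048) had its summit at 110567460, 235 bp upstream, and it had an enrichment of 12.5 and a depth of 1154 fragments (1088 to 1223). RAD21 (chromosome 8, 116845934 to 116874776) had its summit at 116874829, 53 bp outside the gene's higher-numbered end, and it had an enrichment of 16.3 and a depth of 1185 fragments (1118 to 1254). The intervals of the pileups of SMC3 and RAD21 overlapped, while that of SMC1A lay above both. In enrichment the order was different: the RAD21 interval (15.4 to 17.3) lay above those of SMC1A (13.7 to 15.2) and SMC3 (11.8 to 13.3). The 3 local backgrounds were 101.9 fragments at SMC1A, 91.1 at SMC3 and 71.6 at RAD21.

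STAG1 and STAG2 encode large helical-repeat proteins that bind RAD21, and a ring holds only one of them. STAG1 (chromosome 3, 136336236 to 136752378) had its start summit at 136752582, where the enrichment was 15.9 (15.3 to 16.4) and the pileup 3437 (3323 to 3554). STAG2 (chromosome X, 123960560 to 124102656) had its start summit at 123960391, where the enrichment was 8.64 (8.04 to 9.28) and the pileup 752 (699 to 808). STAG1 was thus 4.57 times as deep as STAG2 in pileup and 1.83 times as high in enrichment, with intervals that did not overlap on either scale. The local backgrounds were 215.8 fragments at STAG1 and 86.1 at STAG2, a ratio of 2.51. STAG2 had the lowest enrichment of the 8 and was below the coding median.

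The accessible DNA at the 5′ end of STAG2 was split, unlike that at STAG1. The promoter table lists 3 starts for STAG2, and 3 separate intervals lay in and just downstream of that stretch, each with 1 summit. Downstream of the summit at 123960391, a summit at 123961600 reached an enrichment of 4.34 and 378 fragments (341 to 418), and a summit at 123963175 had 5.78 and 510 (467 to 556). The latter lay 1117 bp downstream of the nearest listed start, just outside the limit of 1000 bp. Its interval, from 123962955 to 123963314, held none of the listed starts. STAG1 instead had a single summit in an interval of 1533 bp, longer than 93.1% of the intervals at coding start summits, while the STAG2 interval of 591 bp was longer than 14.3% of them.

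The genes for loading and release also differed in enrichment. NIPBL (chromosome 5, 36876769 to 37066413), which encodes the loader and is the gene most often altered in Cornelia de Lange syndrome, had its start summit at 36876747, 22 bp upstream. Its enrichment was 12.1 (11.3 to 13.0) and its pileup 777 (723 to 834). The summit shared an interval of 2109 bp with 2 weaker ones further upstream, at 36876033 (enrichment 3.17) and 36875508 (enrichment 1.77), and this interval was longer than 98.6% of those at coding start summits. WAPL (chromosome 10, 86435256 to 86521792), which encodes the release factor, had its start summit at 86521869, where the enrichment was 16.7 (15.8 to 17.6) and the pileup 1285 (1216 to 1357). WAPL was above NIPBL on both scales with no overlap of the intervals, and the NIPBL values were near the coding medians.

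The order of the 8 genes depended on the scale. In pileup it ran CTCF, STAG1, SMC1A, WAPL, RAD21, SMC3, NIPBL, STAG2. Neighbours in that order whose intervals overlapped were WAPL and RAD21, RAD21 and SMC3, and NIPBL and STAG2. In enrichment it ran WAPL, CTCF, RAD21, STAG1, SMC1A, SMC3, NIPBL, STAG2, and the first 4 could not be ordered, since each interval overlapped that of its neighbour, as did SMC3 with NIPBL. CTCF and WAPL show the contrast between the scales: their enrichments were 16.6 and 16.7, but the CTCF pileup was 3.93 times and its local background 3.99 times that of WAPL. The pileups spanned a range of 6.72 times and the enrichments one of 1.93 times.

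**Figure D2:**
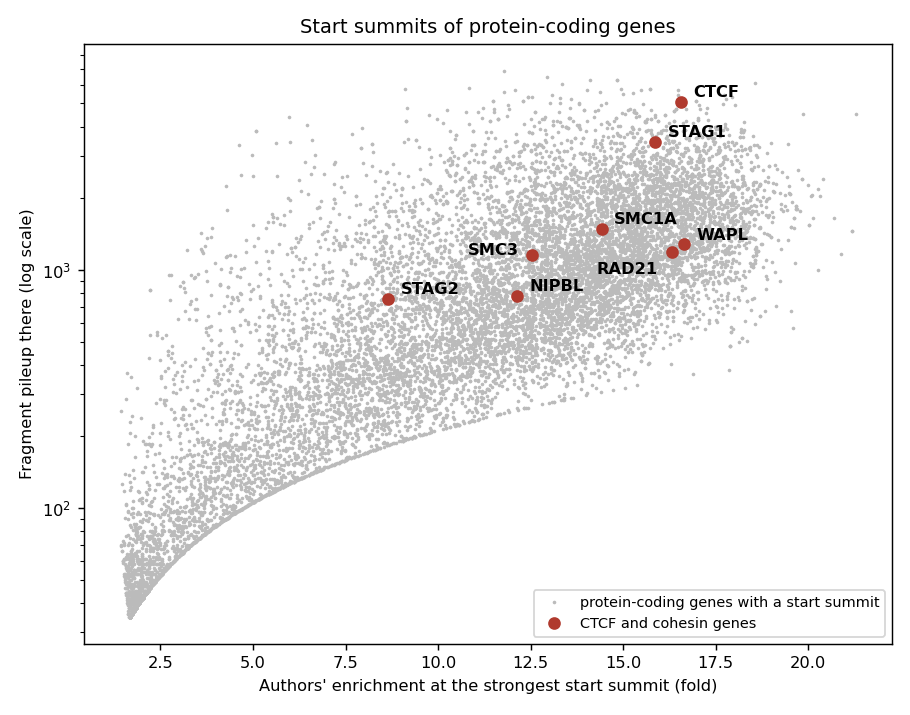
Each grey point is 1 of the 13207 protein-coding genes with a start summit, placed by the authors' enrichment (horizontal axis, fold) and the fragment pileup (vertical axis, log scale), and the red points are the 8 genes. CTCF lies near the upper edge at 5052 fragments, WAPL and RAD21 lie at the same enrichment with 1285 and 1185, and STAG2 lies lowest and farthest left of the 8.

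Set against all coding genes with a start summit, the 8 genes lay mostly in the upper part of the range. Their median enrichment was 15.1, against 11.9 (quartiles 7.25 and 14.8) for the coding genes. The median pileup was 1235 against 765 (quartiles 314 and 1418). On each scale 7 of the 8 genes were above the coding median, the exception being STAG2. The intervals of NIPBL and SMC3 in enrichment, and those of STAG2 and NIPBL in pileup, included the coding median. An enrichment of at least 10 was found at 7 of the 8 genes and at 61.9% of the coding genes with a start summit, and a pileup of at least 1000 at 6 of the 8 and at 39.5%. These limits were chosen after the values were seen.

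SMC1A and STAG2 lie on chromosome X, where pileups at starts were lower than elsewhere. The 421 coding genes with a start summit on X had medians of 468 fragments in pileup and 12.7 in enrichment, against 775.5 and 11.9 for the 12772 on autosomes. Among the X genes, SMC1A exceeded 91.7% in pileup and 63.7% in enrichment. STAG2 exceeded 65.6% in pileup and 27.6% in enrichment, so its pileup was above the median of the X genes and its enrichment below it. The local backgrounds at SMC1A and STAG2 were 101.9 and 86.1 fragments, against a median of 35.3 over the X genes. How many copies of X the cells carried was not tested.

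The start summits of the 7 genes with a listed start lay upstream of it in 7 of 7 cases, at 7 to 244 bp. Among the 10717 coding genes with a start summit and a listed start, 72.3% had theirs upstream and 62.8% in the 250 bases just upstream. An end of another gene lay within 1000 bp of the start summit at 8 of the 8 genes, against 41.6% of the coding genes with a start summit. Within 500 bp it was 7 of 8 against 34.6%, STAG2 being the exception. This feature was looked at after the values were seen and was not tested.

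The partners at these starts were mostly long noncoding RNA genes. How often the partner is such a gene at the start summits of other coding genes was not measured. Whether these starts differ from others in this respect is therefore unknown. CTCF-DT had an end 27 bp from the CTCF summit, and NIPBL-DT had one 53 bp from the NIPBL summit. WAPL-DT had one 78 bp from the WAPL summit, and STAG1-DT had one 89 bp from the STAG1 summit. LOC105378483, also a long noncoding RNA gene, had an end 152 bp from the SMC3 summit. At SMC1A the partner was a coding gene, RIBC1, with an end at 138 bp. At RAD21 the antisense gene RAD21-AS1 and the microRNA gene MIR3610 had ends at 405 and 29 bp, and at STAG2 an end of STAG2-AS1 lay at 950 bp. A summit carries no strand, so the accessible site cannot be assigned to one gene of such a pair.

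Base composition differed among the promoter windows (250 bases before to 50 after the start). The windows of WAPL and CTCF were 76.3% and 75.3% G or C, with 44 and 46 CpG dinucleotides, and that of STAG1 was 71.3% with 37. STAG2 (67.3%, 34 CpG) and NIPBL (67%, 30 CpG) were near the median of 66.7% and 28 CpG over the 7893 coding windows that held the gene's start summit. SMC1A (61%, 21 CpG) and SMC3 (56%, 23 CpG) were below it, and SMC3 had a lower G and C share than all but 11.3% of those windows.

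Short motifs were searched on both strands of the same windows, 1 window for each of the 7 genes with an entry. The SP/KLF box GGGCGG was in 7 of 7, with 3 matches in SMC1A and in STAG1, 2 in CTCF and 1 in each of the others, against 75.9% of the coding windows with a start summit and 56.3% of the 22199 coding windows in all. The ETS core CCGGAA was in SMC1A, STAG1 and NIPBL (3 of 7, against 34% and 21.2%). It began 21 bp before the start in SMC1A and 11 bp before it in NIPBL, where the summits lay at 7 and 22 bp. In STAG1 it began 84 bp before the start, where the summit lay at 204 bp. How near this core lies to the start summit in other coding genes was not measured, and no link between core and summit was tested. The CCAAT box, spelled CCAAT, was in STAG1, STAG2 and WAPL (3 of 7, against 40.3% and 34.7%). A further 8 motifs had 0 matches in the 7 windows: a CTCF core AGGGGGC (21.3% of the windows with a start summit), the E-box CACGTG (11.4%), a YY1 motif AAGATGG (8.43%), an NRF1 motif GCGCATGC (6.75%), the AP-1 motif TGANTCA (4.87%), the CRE TGACGTCA (4.05%), the TATA box TATAAA (4.02%) and a ZNF143 motif ACTACAATT (0.773%). GGGCGG and AGGGGGC can share bases where they meet. A match describes the letters only, and an absent match covers only these letters in this window.

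Away from starts, over 1000 bp from any listed start of the same gene, the 8 genes had 24 summits in 19 intervals. Their median enrichment was 4.05 and median pileup 100. The medians were 3.72 and 103 over 53587 summits in the windows of all coding genes. Those 53587 lay over 1000 bp from the starts of every coding gene, a stricter rule. It would drop at least the summit at 67645098 in the CTCF window, which is the start summit of CARMIL2. Inside the 8 genes lay 14 of the 24 summits and in the flanking 10 kb the other 10. At 6 of the 6 genes with more than 1 summit the start summit was the strongest, against 60.4% of coding genes with a start summit and at least 2 summits. SMC1A and RAD21 had no summit other than the start summit (2 of 8, against 13.3%).

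**Figure D3:**
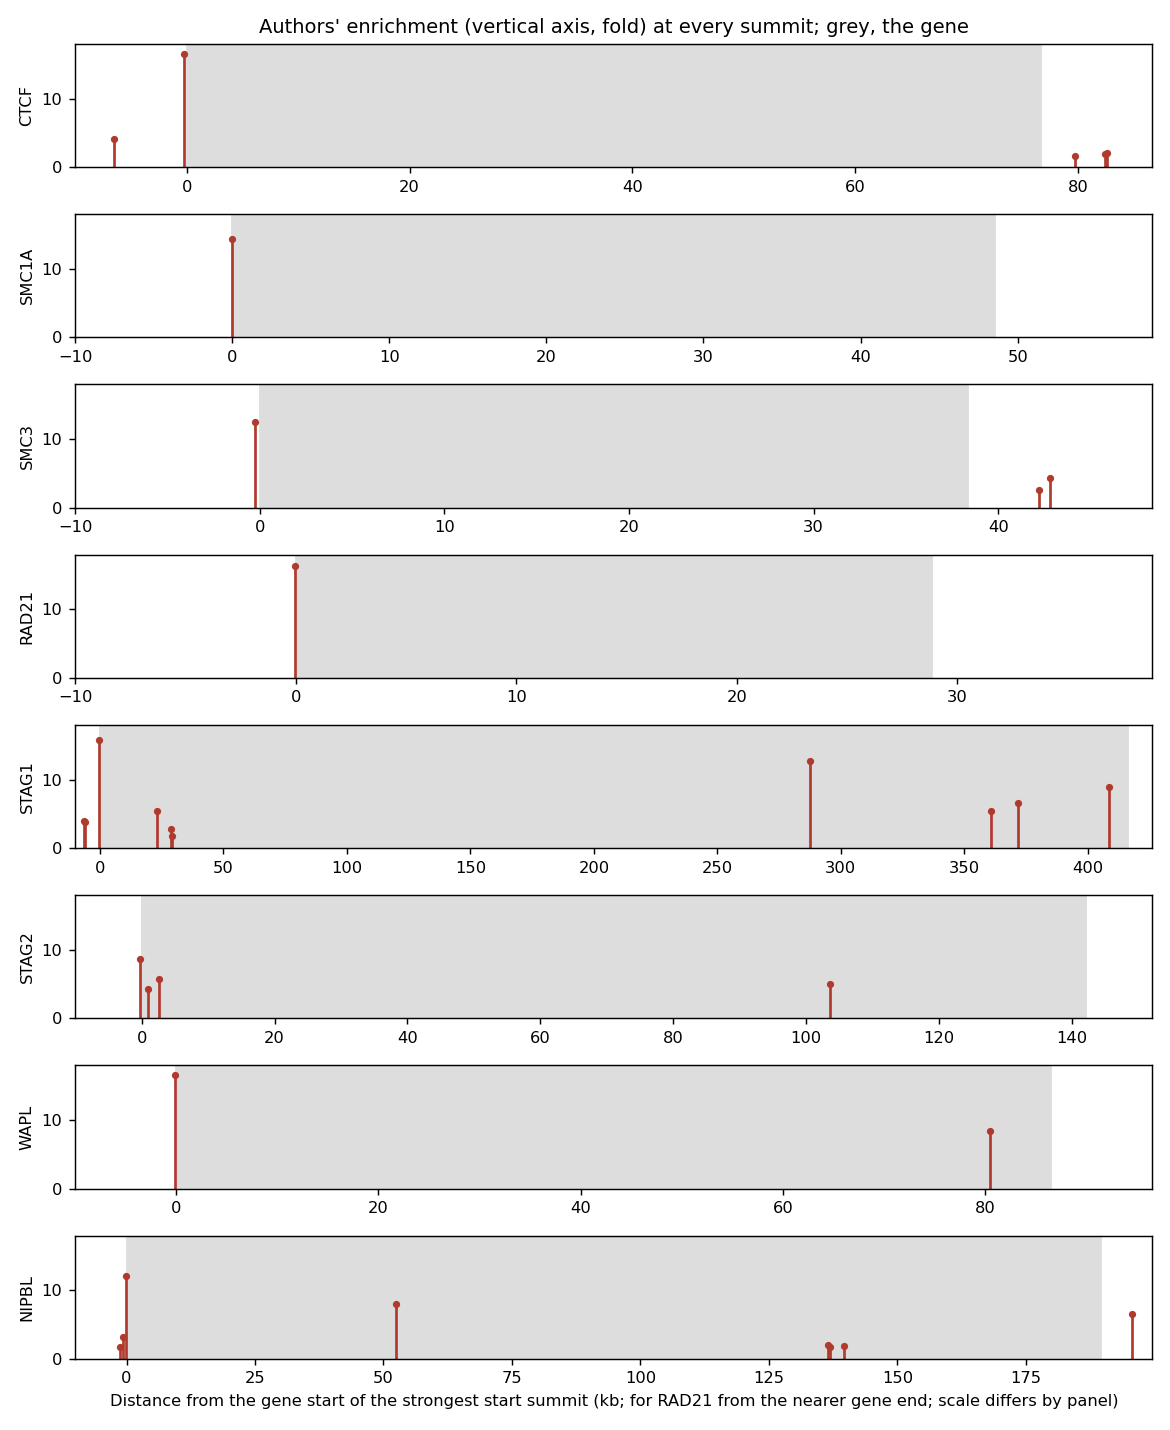
Every summit of the 8 genes by its distance in kb from the start used (horizontal axis, a different scale in each panel, with the direction of transcription to the right where the strand is listed; RAD21 is drawn from the gene end nearer its summit) and by the authors' enrichment (vertical axis, fold); grey marks the gene. SMC1A and RAD21 have 1 line each, while STAG1 has 10, of which the one 287.7 kb into the gene reaches 12.7.

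STAG1, the longest of the genes at 416143 bp, had 9 of the 24 summits away from starts. The strongest lay inside the gene at 136464713, 287.7 kb downstream of the start, in an interval of 613 bp. Its enrichment of 12.7 was as high as that of the SMC3 start summit, but its pileup was 269 (238 to 303), over a local background at the genome-wide value. Near the 3′ end of STAG1, at 136344003, a summit reached an enrichment of 8.89 and 192 fragments (166 to 221). The remaining 7 had enrichments of 1.83 to 6.66. STAG1 had 2.29 summits per 100 kb of gene and flanks, close to the median of 2.54 over the 1198 coding genes within a factor of 2 of its length.

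NIPBL had 6 summits away from its start, of which the strongest was inside the gene at 36929181, 52.4 kb downstream of the start, with 8.07 in enrichment and 171 in pileup (146 to 199). A summit 5990 bp past the gene's other end, at 37072403, had 6.61 and 140 (118 to 165). The other 4 were weak, at 1.69 to 2.06, and the lowest of them, at 37013651, had a −log10 q of 1.51, near the lowest value in the list, 1.30. WAPL had 1 summit away from its start, inside the gene at 86441366 and 6.11 kb from its 3′ end, with 8.35 in enrichment and 209 in pileup (182 to 239). STAG2 had 1 far inside the gene, at 124064187, with 5.07 and 107 (87.7 to 129).

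CTCF and SMC3 had summits only outside the gene apart from the start. For CTCF these were 1 at 67556027, 6499 bp upstream of the start, with an enrichment of 4.11, and 3 past the 3′ end with 1.63 to 2.01. Of the latter, those at 67644937 and 67645098 lay within 1000 bp of an end of the neighbouring coding gene CARMIL2. For SMC3 they were at 110609911 and 110610481, with 2.51 and 4.33, both in an interval that began past the 3′ end. No summit lay between the start and the 3′ end of CTCF, which is 76652 bp long, nor within SMC3, SMC1A or RAD21 beyond 1000 bp from the start. Summits per 100 kb were 1.46 at SMC1A, 1.88 at WAPL and 2.05 at RAD21, lower than at 90.0%, 81.8% and 86.7% of coding genes within a factor of 2 of their length. STAG2, with 2.47, was also below the median of its like-length genes (3.82), and SMC3, with 5.14, was below its own (5.93). CTCF, with 5.17, and NIPBL, with 3.82, were above theirs (4.64 and 3.46). The like-length genes came from all chromosomes, while SMC1A and STAG2 lie on X. Coding genes with a start summit had a median of 4.21 summits per 100 kb on X and 7.27 on autosomes, not matched for length.

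The wider machinery was described with 5 lists of 34 further genes, of which 33 had a start summit. Among the 10 genes that load, modify, protect, release or cleave cohesin or regulate its cleavage, 10 of 10 had one, with a median enrichment of 12.1, and 5 were above the coding median. The highest was SGO1, the shugoshin that protects centromeric cohesin in mitosis, with 17.8 and a pileup of 1094. The lowest was ESCO2, an acetyltransferase for SMC3, with 3.84 and a pileup of 402. ESCO2, like ESCO1, NCAPH2 and NSMCE2, had no promoter entry, so either gene end was accepted for it, and a summit elsewhere in its window reached 14.1.

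The germ line paralogs had lower start values. These are SMC1B, STAG3, REC8 and RAD21L1, which form meiotic cohesin, and CTCFL, a testis paralog of CTCF. A start summit was present at 4 of the 5, where the median enrichment was 9.62 and the median of the pileups 367, and none of the 4 was above the coding median. CTCFL had no start summit, though 4 summits lay in its window, the highest at 7.74. REC8, the meiotic counterpart of RAD21, had 1.49 at its start, lower than at all but 0.0757% of coding genes with a start summit, while a summit elsewhere in its window of gene and flanks reached 13.4. RAD21L1 had the highest start value, 10.9 with a pileup of 566. The difference between these 5 genes and the 8 was not tested. The other looping factors described below had a like median enrichment, 9.85, with a higher median pileup, 1578.

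**Figure D4:**
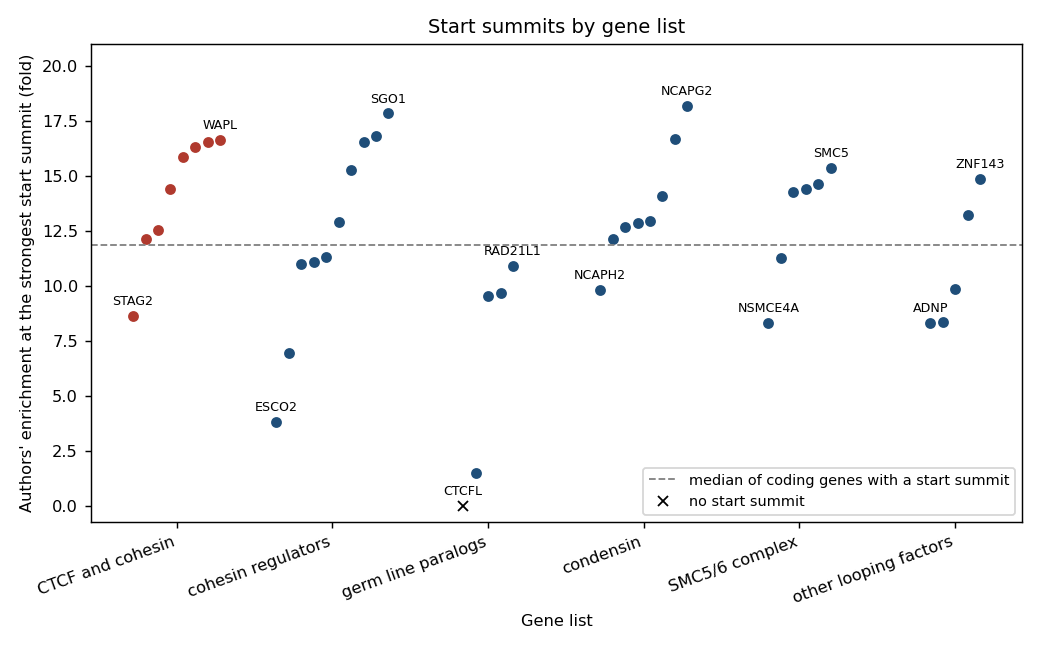
Authors' enrichment at the start summit (vertical axis, fold) for each gene of the 6 lists, ordered within a list, with the lowest and highest named, a cross for no start summit, and a dashed line at the coding median of 11.9. The 8 genes run from 8.64 to 16.7, and the germ line paralogs lie below the line.

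Condensin, the related ring complex that compacts mitotic chromosomes, had start summits at 8 of 8 genes with a median enrichment of 12.9, and 7 were above the coding median. NCAPG2 was highest with 18.2 and a pileup of 3896, and NCAPH2 lowest with 9.84 and a pileup of 2018. The SMC5/6 complex, which acts in DNA repair, had them at 6 of 6 genes. Their median enrichment was 14.3, with 4 genes above the coding median, while their median pileup of 521 was below the coding 765. SMC5 was highest with 15.4 and NSMCE4A lowest with 8.32. Of 5 other factors linked to looping, 5 had one. Their median enrichment of 9.85 was below the coding median, with 2 genes above it, while their median pileup of 1578 was above the coding 765. ZNF143, a zinc finger factor that binds promoters, was highest with 14.9 and a pileup of 4015. ADNP, a homeodomain zinc finger protein, was lowest with 8.34 and a pileup of 681. The start share in these lists, as in the 8 genes, is read against the 65.9% of all coding genes.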

How the data were processed

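ATAC-seq was done on 12 libraries in 3 groups, 4 per collagen concentration, and 1 pooled peak list was used. The submitters' processing notes name fastp 0.20.0, Bowtie2 2.4.3, deepTools 3.5.0, SAMtools and MACS2 2.2.7.1 and the build hg38; their settings, the treatment of duplicates and any control are not given in the sources used here. Whether the 4 libraries of a group came from separate gels is not stated. The deposited enrichment is a ratio (fold over the local background). Per the narrowPeak layout, the deposited p-values and q-values are on the −log10 scale, and the deposited score equals 10 times the −log10 q, truncated, in 99.8% of lines.

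Pileup and local background were solved from each line's enrichment, taken as (pileup + 1)/(background + 1), and its −log10 p, taken as a Poisson upper tail. This model is stated in no label. It returned a whole pileup, within 0.05, in 99.96% of lines. The solving was tested on data simulated under the same model, which cannot show that the model holds for the deposited values. Values equal to the lowest background within 0.2% count as genome-wide. Intervals are exact Poisson 95% intervals of the pileup with the background held fixed. They cover counting error only, and fragments without molecular identifiers need not be independent molecules.

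Gene positions and promoter windows came from RefSeq (GRCh38.p14). Of the 20037 coding genes on autosomes, X and Y, 15842 had a listed start; for the rest both gene ends were used. The genes and lists were chosen with earlier results of these data known. All 8 genes are named; in each further list, the genes with the highest and lowest start enrichment and any without a start summit. A gene of the list of other looping factors is not reported here and is left out of that list's counts and medians. No statistical test of a difference was run, since the list holds 1 pooled value per summit. Shares and medians of all coding genes, the 8 included, serve as background. Alternatives were other windows, either gene end, a −log10 q of at least 10, 1 summit per interval and intervals of at most 10 kb. Python 3.11.15, numpy 2.4.6, pandas 2.3.3 and scipy 1.17.1 were used.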

Additional observations from a re-analysis of the deposited data

How the results depend on the processing

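The count of 8 genes with a start summit, their median start enrichment of 15.1 and their median start pileup of 1235 were the same with a start window of 500 or 2500 bp, with either gene end, at a −log10 q of at least 10, with only the strongest summit of each interval, with intervals of at most 10 kb, and with the start summit chosen by pileup, a setting chosen after seeing the data. The start summits of the 8 genes lay at most 244 bp from a start, in intervals of at most 2109 bp, with a −log10 q of at least 418. The 500 bp window, the −log10 q limit and the 10 kb limit could thus not remove them. Over these settings the share of coding genes with a start summit ranged from 60.8% to 72.3%. The medians of those coding genes ranged from 11.5 to 12.4 in enrichment and from 715 to 847 in pileup. The number of summits at the 8 genes followed the window: 34 within 10 kb became 15 in the gene bodies alone and 61 within 50 kb. It was 25 at a −log10 q of at least 10 and 27 with 1 summit per interval. No paired analysis was possible because the pooled list names no library; for the same reason no library could be left out. Of the 24 summits away from starts, 9 had a −log10 q under 10. What depth limits was not tested.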
